A study of Mus musculus with 4 samples.

Results

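The moderate shared sites are peaks of streptavidin chromatin immunoprecipitation that were listed in both thymocyte populations of the study at modest scores. They were chosen by their deposited scores and positions, as peaks of the PLZF-transgenic list with a score under 200 that overlapped a peak of the NKT list by at least 1 bp, where the highest overlapping NKT score was the lower of both scores. The mitochondrial genome and the Y chromosome were left out. The rule found 854 sites among 5198 PLZF-transgenic peaks, or 16.5% of the 5191 peaks on the autosomes and the X chromosome (exact 95% interval 15.5 to 17.5%). The NKT library came from thymocytes of PLZF tg/BirA tg/Valpha14 tg mice, which carry transgenes for PLZF, for the bacterial biotin ligase BirA and for Valpha14, the receptor chain typical of invariant natural killer T cells. The PLZF-transgenic library came from thymocytes of PLZF tg/BirA tg mice, and both groups were on a C57BL/6 background. All mice thus carried the PLZF and BirA transgenes. The sources used here do not give the promoters that drive the transgenes, the age of the mice or any sorting of cells, so NKT names a library and not a sorted cell type. Each ChIP group had 1 library, and the input library of each population was not analysed here.

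PLZF, encoded by Zbtb16, is a transcription factor with a BTB domain, through which it recruits co-repressors, and zinc fingers that bind DNA. It gives natural killer T cells their rapid, innate-like effector program. Streptavidin beads pull down biotinylated protein together with the DNA it is bound to, and a peak is a stretch of the genome over which the recovered fragments pile up. The samples held no streptavidin control from animals lacking the PLZF transgene, so a site described here need not be bound by PLZF. Bulk peaks also do not tell apart a site used in few cells from a site weakly used in many.

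Promoters made up a part of these sites, and the promoters of 6 named genes are printed here. The sequences are from RefSeq (GRCm38.p6, the assembly that mm10 names), run 5′ to 3′ along the gene, and hold 250 bases before the annotated start and 50 bases after it. Capitals mark matches on either strand to the ETS core CCGGAA, the RUNX motif TGTGGT, the TCF/LEF motif CTTTGA and the E-box CAGGTG. Ndufs7, Ccni and Hjurp are shown as promoters rich in CpG that hold the ETS core.
Ndufs7 promoter, chr10:80249199-80249498, plus strand: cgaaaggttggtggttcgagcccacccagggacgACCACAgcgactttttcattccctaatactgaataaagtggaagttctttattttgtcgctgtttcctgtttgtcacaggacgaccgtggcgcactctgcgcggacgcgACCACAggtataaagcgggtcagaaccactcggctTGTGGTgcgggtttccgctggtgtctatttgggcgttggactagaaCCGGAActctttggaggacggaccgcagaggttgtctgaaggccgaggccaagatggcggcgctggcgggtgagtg
Ccni promoter, chr5:93206446-93206745, minus strand: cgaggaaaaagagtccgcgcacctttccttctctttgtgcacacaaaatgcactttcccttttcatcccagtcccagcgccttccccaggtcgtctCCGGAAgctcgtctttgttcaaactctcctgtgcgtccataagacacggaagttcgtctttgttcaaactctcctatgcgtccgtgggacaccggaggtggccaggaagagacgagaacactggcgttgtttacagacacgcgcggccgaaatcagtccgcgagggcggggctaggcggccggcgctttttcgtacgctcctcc
Hjurp promoter, chr1:88277530-88277829, minus strand: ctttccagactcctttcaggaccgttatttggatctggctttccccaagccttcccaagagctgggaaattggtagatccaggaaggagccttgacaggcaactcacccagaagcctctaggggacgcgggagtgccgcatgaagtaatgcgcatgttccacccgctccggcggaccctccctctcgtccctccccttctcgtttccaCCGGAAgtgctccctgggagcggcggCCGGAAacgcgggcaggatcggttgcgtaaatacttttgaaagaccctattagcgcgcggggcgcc
Fyb, Pik3cg and Cd3d are shown as promoters of T cell and leukocyte genes, with few CpG and no ETS core. The 6 were picked for these letters, so they show no contrast between kinds of gene.
Fyb promoter, chr15:6579597-6579896, plus strand: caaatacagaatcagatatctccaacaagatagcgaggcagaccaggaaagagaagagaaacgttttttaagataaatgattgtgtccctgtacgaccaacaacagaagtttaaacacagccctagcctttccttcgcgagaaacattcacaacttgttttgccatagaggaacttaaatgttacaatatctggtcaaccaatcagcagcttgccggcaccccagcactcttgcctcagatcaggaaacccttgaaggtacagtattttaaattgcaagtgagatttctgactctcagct
Pik3cg promoter, chr12:32208610-32208909, minus strand: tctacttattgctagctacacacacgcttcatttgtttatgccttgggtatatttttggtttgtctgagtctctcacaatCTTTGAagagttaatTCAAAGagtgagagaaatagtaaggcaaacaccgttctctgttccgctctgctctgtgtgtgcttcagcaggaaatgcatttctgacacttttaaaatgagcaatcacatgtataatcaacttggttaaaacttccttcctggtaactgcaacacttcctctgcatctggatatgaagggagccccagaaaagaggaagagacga
Cd3d promoter, chr9:44981536-44981835, plus strand: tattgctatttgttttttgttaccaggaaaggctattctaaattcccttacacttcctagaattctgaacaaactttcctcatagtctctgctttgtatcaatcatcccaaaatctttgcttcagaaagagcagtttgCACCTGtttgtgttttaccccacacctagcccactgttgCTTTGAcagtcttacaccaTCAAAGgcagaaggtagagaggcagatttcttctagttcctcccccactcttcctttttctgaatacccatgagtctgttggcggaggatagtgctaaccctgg

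Ndufs7 encodes a subunit of respiratory complex I. Its site scored 155 in the NKT list and 199 in the PLZF-transgenic list and covered all 300 bases of the window. The window held 24 CpG, an ETS core that began at position -26 from the start and 3 RUNX matches. Ccni encodes cyclin I, and its site scored 143 in the NKT list and 148 in the PLZF-transgenic list, with 27 CpG and an ETS core at position -154. Hjurp encodes the chaperone that loads the centromeric histone variant CENP-A. Its site scored 134 and 171 in the NKT and PLZF-transgenic lists, and ETS cores began at positions -42 and -16 among 22 CpG. The Cd3d promoter, of the gene for the CD3 delta chain, held 1 CpG, 2 TCF/LEF matches and a CAGGTG E-box, under a site that scored 96.4 in the NKT list and 142 in the PLZF-transgenic list. The Pik3cg promoter, of the gene for the gamma catalytic subunit of PI3-kinase, held 4 CpG and 2 TCF/LEF matches, with scores of 108 in the NKT list and 198 in the PLZF-transgenic list. The Fyb promoter, of the gene for the adaptor ADAP, held 6 CpG and none of the capitalised motifs, with scores of 120 and 149 in the NKT and PLZF-transgenic lists. It belongs to a start inside the gene, whose span begins at position 6522796 of chromosome 15.

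Across all moderate shared sites, the ETS core was common in the promoters they overlapped. Of 831 sites outside chromosome 18, whose promoters were not used here, 123 overlapped at least 1 promoter window, 14.8% (exact 95% interval 12.5 to 17.4%). These held 153 windows of 136 genes, since a gene can have several starts. The ETS core was found in 65 of the 153 windows, 42.5% (34.5 to 50.7%). It was found in 33.6% of the 152 windows under strong shared sites (26.1 to 41.7%), which are shared sites with a score of 200 or more and a lower NKT score. The share was 37.0% of the 368 windows under PLZF-transgenic peaks below 200 that had no NKT peak (32.0 to 42.1%), called unshared peaks here. Among all 32585 windows it was 15.0% (14.6 to 15.4%), and among the 21011 of protein-coding genes 18.9%. The intervals of the 3 peak sets overlapped one another and all lay above the share in all windows. Differences between these shares were not tested.

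The ETS core contains a CpG, and the windows under moderate shared sites held a median of 18 CpG (quartiles 9 to 24), against 13 under strong shared sites, 16 under unshared peaks and 7 in all windows. Among windows with 21 or more CpG, the core was in 37 of 63 under moderate shared sites, 58.7% (45.6 to 71.0%), against 58.3% under strong shared sites (40.8 to 74.5%), 53.6% under unshared peaks (43.9 to 63.0%) and 30.3% of all such windows (29.3 to 31.3%). Among windows with 8 to 20 CpG it was in 28 of 59, 47.5% (34.3 to 60.9%), against 43.3% under strong shared sites (30.6 to 56.8%), 40% under unshared peaks (32.9 to 47.4%) and 22.0% of all such windows (21.1 to 22.9%). In both of these classes, the shares of the 3 peak sets lay closer together than over all their windows. It was in 0 of the 9 windows with up to 3 CpG, against 1.94% of all such windows. It was in 0 of the 22 with 4 to 7 CpG, against 4 of 34 under strong shared sites, 2 of 43 under unshared peaks and 7.77% of all such windows. Where a site and a promoter with the core met, a match lay inside the site in 60 of 65 pairs, at a median of 68 bp from the centre of the site (quartiles 30 to 144 bp). Windows entered only where a site overlapped them, which favours a match inside the site. No expected rate was computed, so the count does not show that the core and the sites coincide. A match to these letters does not show that an ETS factor binds there.

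For 10 of the other 11 motifs, the interval under moderate shared sites held the share in all windows. RUNX matches were in 17.6% of the windows under moderate shared sites (11.96 to 24.6%) and in 16.6% of all windows, TCF/LEF matches in 15.0% (9.77 to 21.7%) and 16.0%. The E-box CAGCTG was in 15.0% (9.77 to 21.7%) and 16.4%, and the E-box CAGGTG in 15.7% (10.3 to 22.4%) and 20.3%. The GC box GGGCGG was in 43.1% (35.2 to 51.4%) and 35.9%, and in 46.6% of protein-coding windows. The CCAAT box (CCAAT) was in 34.0% (26.5 to 42.1%) and 37.6%, and the GATA motif AGATAA in 7.19% (3.64 to 12.5%) and 11.2%. For the YY1 motif AAGATGG the shares were 3.27% (1.07 to 7.46%) and 6.36%, for the AP-1 motif TGANTCA 5.23% (2.28 to 10.04%) and 7.85%. The exception was the NRF1 motif GCGCATG, whose interval lay above the share in all windows, at 9.15% (5.09 to 14.9%) against 3.92%. The motif was in 7.34% of windows under unshared peaks (4.89 to 10.5%), 4.61% under strong shared sites (1.87 to 9.26%) and 4.83% of protein-coding windows. GCGCATG also contains a CpG, and its share was not computed by class of CpG. The CRE letters TGACGTC were in 6.54% (3.18 to 11.7%), against 3.23% of all windows. All motifs were searched on both strands, and matches of different motifs could overlap.

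**Figure D1:**
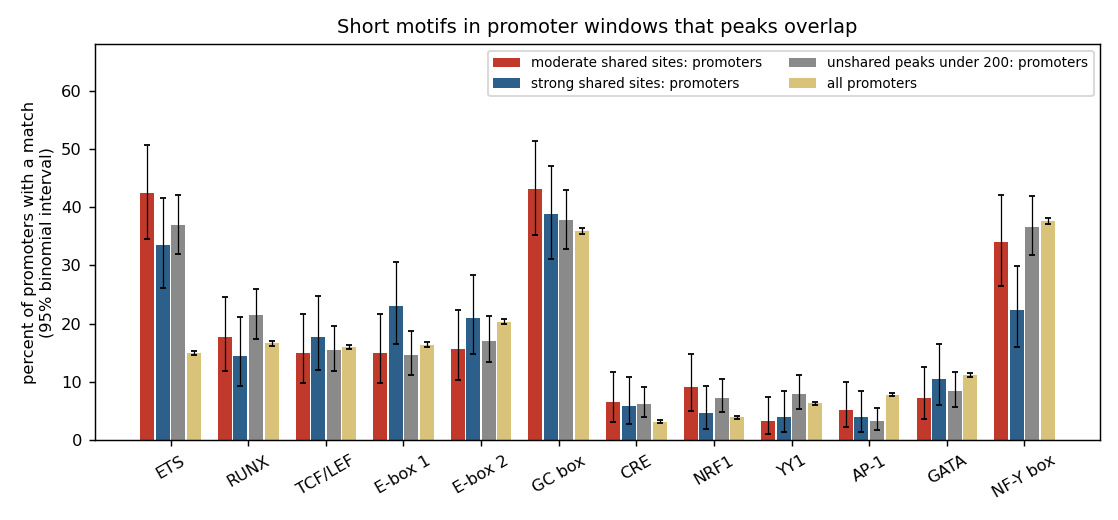
Percent of promoter windows (y axis, with exact 95% binomial intervals) that hold each short motif (x axis) under moderate shared sites (153 windows), strong shared sites (152) and unshared peaks under 200 (368), and among all 32585 windows. E-box 1 and 2 are CAGCTG and CAGGTG, and the NF-Y box is the CCAAT box; the ETS bars of the 3 peak sets stand at 42.5, 33.6 and 37.0% against 15.0% of all windows.

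Some sites overlapped promoters on opposite strands. At 14 of the 123 sites over a promoter, windows of genes on opposite strands were overlapped (11.4%, 6.36 to 18.4%), against 17.4% (10.96 to 25.6%) at strong shared sites and 12.6% (9.13 to 16.8%) at unshared peaks. The one with the highest NKT score overlapped windows of Dctn5, a dynactin subunit gene, and Palb2, which encodes a partner of BRCA2 (chromosome 7, 122132775 to 122133150, NKT score 114 and PLZF-transgenic score 135). Another overlapped windows of Banf1, which encodes a chromatin protein of the nuclear envelope, and Eif1ad (chromosome 19, 5366578 to 5367123, scores of 91.9 and 192 in the NKT and PLZF-transgenic lists). A further site overlapped windows of Rbbp4, a histone-binding subunit of co-repressor complexes, and Zbtb8os (chromosome 4, 129335596 to 129336032, 90.4 and 196).

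The scores and the overlap chose the sites and are given as a description. The score is the value the authors deposited with each peak. Its unit is not stated, and its lowest values were 50.02 in the NKT list and 50.03 in the PLZF-transgenic list. NKT scores of the moderate shared sites ran from 50.02 to 191 with a median of 71.0 (quartiles 57.0 to 95.2). Their PLZF-transgenic scores ran from 51.6 to 199.9 with a median of 130 (quartiles 96.4 to 161). The medians were 157 and 334 for strong shared sites, in the NKT and PLZF-transgenic lists. The lists are separate and their depth is unknown, so a pair of scores shows no change between the libraries. Of the 3875 PLZF-transgenic peaks under 200, the rule took 22.0%, and 32.4% overlapped some NKT peak. The share taken was higher in each higher class of score. It was 5.29% of peaks scoring from 50 to under 75, 28.0% from 100 to under 125 and 54.5% from 175 to under 200. This rise is partly built into the rule, since both lists begin near 50 and low scores leave little room for a lower NKT score. In the same classes, 172 of 1456, 54 of 571 and 13 of 266 peaks overlapped an NKT peak whose score was not lower.

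**Figure D2:**
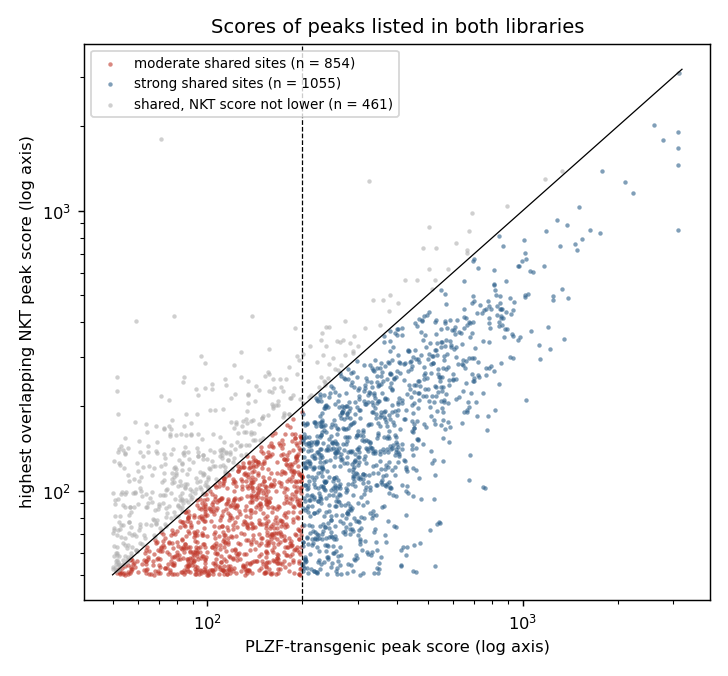
Each point is a PLZF-transgenic peak that overlaps an NKT peak, placed by its own score (x axis) and by the highest overlapping NKT score (y axis), both on log axes. The 854 moderate shared sites (red) fill the corner left of the dashed line at 200 and below the line of equal scores, next to 1055 strong shared sites (blue) and 461 peaks whose NKT score was not lower (grey).

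At the ceiling, the 5 highest members scored from 199.1 to 199.9 in the PLZF-transgenic list, with NKT scores of 191 (inside Kcnip1), 112 (at Thg1l), 74.99 (inside Akap13), 113 (42.5 kb from Dusp10) and 112 (inside Lmnb1). The 5 shared peaks just above it scored from 200 to 200.7, with NKT scores of 54.5 (8.68 kb from Klrb1c), 51.6 (inside Chd7), 86.6 (inside Pfkfb2), 53.8 (inside Ripor2) and 63.3 (inside Atp6v0a2). At the other edge of the rule, the NKT and PLZF-transgenic scores of a member at Rpl12 were 97.2 and 97.4, and those of a peak at Smim5 that was not taken were 96.9 and 96.8.

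Within the sites, the NKT peak was usually the shorter and often lay wholly inside the PLZF-transgenic peak. A single NKT peak overlapped 798 sites and a pair of them overlapped the other 56. The NKT peaks had a median width of 219 bp (quartiles 176 to 278), and the PLZF-transgenic peaks one of 404.5 bp (345 to 476). The PLZF-transgenic peak was the wider at 838 of 854 sites, 98.1% (97.0 to 98.9%). The NKT peak lay wholly inside it at 556, 65.1% (61.8 to 68.3%), and covered a median of 52.6% of its length (40.6 to 65.5%). The midpoints of both peaks lay within 100 bp of each other at 630 sites, 73.8% (70.7 to 76.7%), and within 50 bp at 385, 45.1% (41.7 to 48.5%), with a median distance of 58 bp. The overlap and the widths limit how far apart the midpoints can lie. No expected distance was computed, so these shares do not show that the peaks share a centre. At 20 sites the overlap was under 50 bp, and requiring 50% of both lengths would leave 478 sites. The rule kept only pairs with a lower NKT score, and PLZF-transgenic peak width moved with score. The order of the widths may therefore partly follow from the choice of sites. Median NKT and PLZF-transgenic widths were 388 and 669 bp at strong shared sites, and 319 and 334 bp where the NKT score was not lower.

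The width of the PLZF-transgenic peak moved with its score, and at like scores moderate shared sites were about as wide as unshared peaks. In peaks scoring from 50 to under 75, the median width was 262 bp (quartiles 241 to 287) at moderate shared sites and 258 bp (232 to 286) at unshared peaks. From 100 to under 125 it was 383 bp (352 to 418) and 388 bp (353 to 425). From 175 to under 200 it was 520 bp (465 to 567) and 521 bp (470 to 582). The widest gaps were at 125 to under 150, with 424 and 454 bp, and at 150 to under 175, with 459 and 499.5 bp, and the quartile ranges overlapped in every class. The widest site, of 3653 bp, lay inside Sfi1 (chromosome 11, 3139419 to 3143071, NKT score 88.1 and PLZF-transgenic score 118), a gene presumed here to lie in a repeat-rich region.

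**Figure D3:**
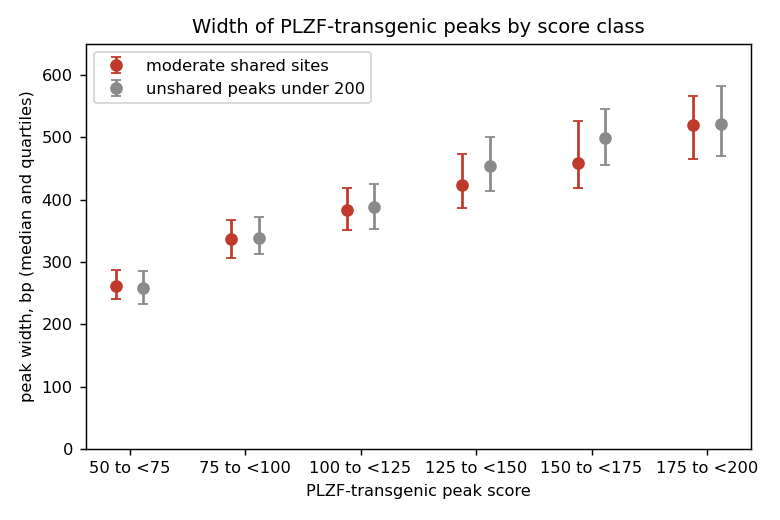
Median width in bp of PLZF-transgenic peaks (y axis, bars show quartiles) in classes of their score (x axis), for moderate shared sites (red) and unshared peaks under 200 (grey). Both sets widen with the score, from 262 and 258 bp in the lowest class to 520 and 521 bp in the highest.

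Most sites lay in or beside genes. Within 1 kb of a boundary of an annotated gene were 239 of 854 moderate shared sites, 28.0% (25 to 31.1%), against 22.1% of strong shared sites (19.6 to 24.7%), 25.4% of unshared peaks (23.7 to 27.1%) and 25.4% of all 5191 peaks (24.2 to 26.6%). Further inside genes were 45.2% of moderate shared sites (41.8 to 48.6%), against 51.9% of strong shared sites (48.9 to 55.0%) and 49.8% of unshared peaks (47.9 to 51.7%). Between genes were 26.8% (23.9 to 29.9%), against 26.0% and 24.9%. For both of the first shares, the intervals of moderate and strong shared sites did not overlap, while those of moderate shared sites and unshared peaks did. The intervals cover counting error only, and the differences were not tested. In every score class of 25 the share near a boundary was higher in moderate shared sites than in unshared peaks. The shares were closest at 175 to under 200, 26.2% against 24.1% (38 of 145 and 26 of 108). They were furthest apart at 75 to under 100, 34.1% against 26.5% (58 of 170 and 156 of 588). Shared peaks whose NKT score was not lower stood at 28.9% near a boundary (24.8 to 33.2%), 47.5% further inside genes (42.9 to 52.2%) and 23.6% between genes. The share near a boundary was thus not particular to moderate shared sites.

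The boundary was usually where the gene begins. Of 170 moderate shared sites within 1 kb of a protein-coding boundary, 134 could be placed with the strand of the gene, and 117 of these lay at the start, 87.3% (80.5 to 92.4%). The share was 79.8% of 114 strong shared sites (71.3 to 86.8%) and 86.6% of 397 unshared peaks (82.9 to 89.8%). The nearest gene of any kind was a lncRNA for 205 moderate shared sites, 24.0% (21.2 to 27.01%), against 26.7% of strong shared sites and 21.7% of unshared peaks. Neighbouring PLZF-transgenic peaks lay at a median of 24.3 kb from a moderate shared site, against 11.6 kb from a strong shared site and 24.2 kb from an unshared peak. Within 5 kb of another peak were 26.9% (24.0 to 30.04%), against 34.5% (31.6 to 37.5%) and 28.1% (26.4 to 29.9%).

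**Figure D4:**
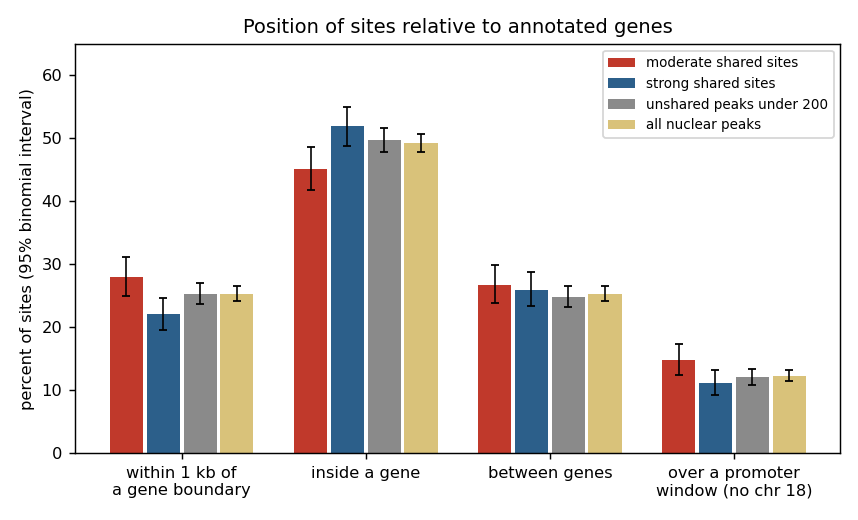
Percent of sites (y axis, with exact 95% binomial intervals) in each position class (x axis) for moderate shared sites, strong shared sites, unshared peaks under 200 and all nuclear PLZF-transgenic peaks. Moderate shared sites stand at 28.0% near gene boundaries and 14.8% over a promoter window, against 22.1 and 11.1% for strong shared sites.

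The 10 sites with the highest NKT scores were spread over genes of many kinds. The highest lay inside Kcnip1, which encodes a potassium channel-interacting protein (chromosome 11, 33938892 to 33939448, NKT score 191 and PLZF-transgenic score 199.9). A site 63.3 kb from Btg1, an antiproliferative gene of lymphocytes (chromosome 10, 96685858 to 96686377), scored 171 and 179 in the NKT and PLZF-transgenic lists. A site on chromosome 7 (126975846 to 126976296, 169 and 183) overlapped the promoter of Cdiptos, and its midpoint lay 387 bp from a boundary of Cdipt, which encodes phosphatidylinositol synthase. A site inside Nfia, a nuclear factor I gene (chromosome 4, 97772281 to 97772646), scored 159.7 and 177. A site 646 bp from Zdhhc5, a palmitoyltransferase gene (chromosome 2, 84715549 to 84716072), scored 159 and 189. The other 5 lay inside Plxdc1 (161 and 164), Fam102a (159.8 and 185), Smoc1 (158 and 160.2) and Clip2 (157 and 196), and 415 kb from Hs6st1 (181 and 187), the NKT score first in each pair. None of these 10 genes belongs to the T cell lists used here.

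Sites were assigned by their midpoint to the closest protein-coding gene, up to 100 kb away, a distance that says nothing of which gene a site acts on. In this way 794 sites fell to 709 genes, 3.28% of 21627 protein-coding genes, and the other 60 lay farther away. Unshared peaks fell to 8.79% of these genes, strong shared sites to 3.74%, peaks whose NKT score was not lower to 1.87% and unshared peaks of 200 or more to 0.846%. A single moderate shared site was given to 640 genes, 2 to 56 genes and 3 or more to 13. Strong shared sites were also given to 149 of the 709 genes (21.0% of them and 18.4% of the 809 genes with a strong shared site). For 368 genes, 51.9%, the moderate shared sites were the only PLZF-transgenic peaks, and 320 of these had no other NKT peak either.

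Cux1, which encodes a homeodomain transcription factor, had the most. Its 5 sites were its only PLZF-transgenic peaks, 3 inside the gene and the other 2 at 50.2 and 58.2 kb from it. In order along chromosome 5, from 136410574 to 136626038, their NKT scores were 100.4, 144, 119, 57.6 and 122. Their PLZF-transgenic scores in the same order were 148, 160.3, 126, 166 and 142. The site with the lowest NKT score of the 5 thus had the highest PLZF-transgenic one. Akap13, which encodes an anchoring protein for kinase A, had 4 sites inside the gene on chromosome 7. Their NKT scores were 52.8, 77.4, 58.8 and 74.99, and their PLZF-transgenic scores 148, 83.8, 178 and 199. Another strong shared site lay with them.

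A further 11 genes had 3 sites each, among them several lymphocyte genes. Slfn2, a schlafen gene that keeps T cells quiescent, had no other PLZF-transgenic peak. Its NKT scores were 54.5 at the promoter, and 60.3 and 131 at 7.63 and 9.07 kb, with PLZF-transgenic scores of 74.9, 154 and 154. Klf13, a Krüppel-like factor gene, had NKT scores of 132, 52.6 and 70.7 and PLZF-transgenic scores of 192, 168 and 165, all 45.6 kb or more away. Sema4d, which encodes the semaphorin CD100, had NKT scores of 51.8, 92.9 and 86.2 and PLZF-transgenic scores of 121, 109 and 166, beside 3 strong shared sites. Nfia, Mef2a (a MADS-box factor gene), Cmah (a sialic acid hydroxylase gene), Ets1, Ldlrad3, Agfg2 and A630001G21Rik were among the others. Zbtb16, the gene of PLZF itself, had 2 moderate shared sites inside it (chromosome 9, 48665026 to 48665404 and 48743336 to 48743579). Their NKT scores were 139 and 82.1 and their PLZF-transgenic scores 148 and 90.3. The gene was also given 3 strong shared sites and 1 shared peak whose NKT score was not lower. A further peak there was in the NKT list alone.

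Genes of T cell receptor signalling often had a moderate shared site. Of 42 genes in that list 13 had one, 31.0% (17.6 to 47.1%), against 3.28% of all protein-coding genes, and 10 of the 13 had a strong shared site too. A strong shared site was given to 25 of the 42, against 3.74% of all genes. Unshared peaks fell to 31 of the 42, against 8.79% of all genes, so a peak at these genes was not particular to shared sites. Among the receptors, Cd3d had a site at its promoter, as above, and Cd247, which encodes the CD3 zeta chain, a site with an NKT score of 94.0 and a PLZF-transgenic score of 111. Cd5, an inhibitory receptor of thymocytes, had sites 1.64 and 12.8 kb away with NKT scores of 122 and 76.2 and PLZF-transgenic scores of 184 and 147. Cd2, Cd6 and Cd8b1 had a site each.

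Kinases of this pathway were among them. Zap70, the kinase bound to phosphorylated receptor chains, had a site (chromosome 1, 36761594 to 36762048) with scores of 74.1 and 134 in the NKT and PLZF-transgenic lists and no other peak in either. Prkcq, the protein kinase C theta gene, had a site with scores of 74.6 and 178. Rasgrp1, a Ras exchange factor that thymic selection needs, had a site 79.5 kb away with scores of 120 and 181, next to 4 strong shared sites. The adaptor gene Fyb, the phosphatase gene Ubash3a and the adaptor gene Pag1 also had a site.

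**Figure D5:**
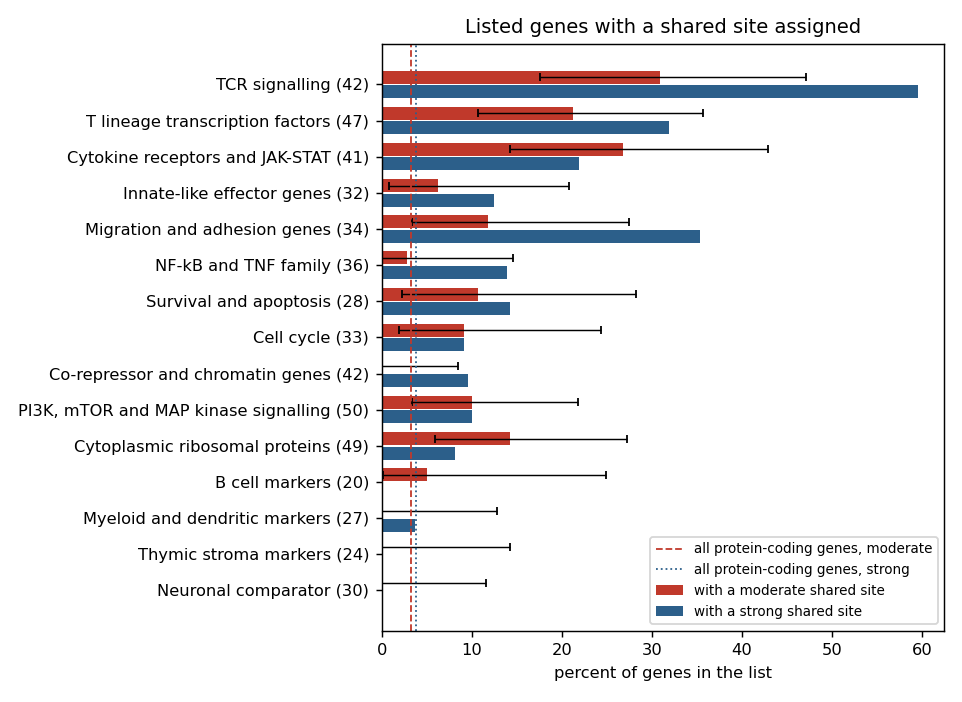
Percent of the genes in each list (x axis; number of genes in brackets) given a moderate shared site (red, with exact 95% binomial intervals) or a strong shared site (blue). Dashed and dotted lines mark the shares among all protein-coding genes, 3.28 and 3.74%; T cell receptor signalling, cytokine receptor and T lineage factor genes stand at 31.0, 26.8 and 21.3% for moderate shared sites. Unshared peaks are not drawn.

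Of 41 cytokine receptor and JAK-STAT genes, 11 had a moderate shared site, 26.8% (14.2 to 42.9%), against 3.28% of all protein-coding genes. A strong shared site was given to 9 of the 41, 22.0%, against 3.74% of all genes, and to 3 of the 11. Unshared peaks fell to 19 of the 41, against 8.79% of all genes. Il21r, the interleukin 21 receptor gene, had sites 1.15 and 1.96 kb away, with NKT scores of 115 and 51.7 and PLZF-transgenic scores of 196 and 113. Tgfbr1, a TGF-beta receptor gene, scored 114 and 187 in the NKT and PLZF-transgenic lists, and Ifngr1, an interferon gamma receptor gene, 108 and 199, at 10.6 and 7.74 kb. Il12rb2 and Il12rb1 encode both chains of the interleukin 12 receptor. A site inside Il12rb2 scored 100 in the NKT list and 102 in the PLZF-transgenic list, and a site 1.61 kb from Il12rb1 scored 81.1 and 155. Stat4, which acts downstream of that receptor, scored 102 and 115, at a site inside the gene. Il2ra, Il6st, Ifnar1 and the inhibitor gene Cish had NKT scores from 51.7 to 83.7 and PLZF-transgenic scores from 68.2 to 191 at their highest sites. With a limit of 10 kb in place of 100 kb, 7 of the 41 had a site, and 4 with gene bodies alone.

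Transcription factors of the T lineage had a site at 10 of 47 genes, 21.3% (10.7 to 35.7%), against 3.28% of all protein-coding genes, and 5 of the 10 had a strong one too. A strong shared site was given to 15 of the 47, 31.9%, against 3.74% of all genes. Unshared peaks fell to 23 of the 47, against 8.79% of all genes. A ceiling of 150 left 6 of the 47 with a moderate shared site, and leaving out the condition on the order of scores gave 17. Nr4a1, an immediate early gene of receptor signalling, had its only peak, inside the gene (chromosome 15, 101258217 to 101258644), with scores of 143 in the NKT list and 162 in the PLZF-transgenic list. Lef1, a partner of TCF1, had sites scoring 124 and 69.3 in the NKT list and 177 and 92.4 in the PLZF-transgenic list. Tox, which CD4 lineage cells require, scored 109 and 163, Runx1 103 and 154, and Tcf7, which encodes TCF1, 70.3 and 91.5, the NKT score first. Ets1 had 3, with NKT scores of 111, 68.4 and 61.5 and PLZF-transgenic scores of 112, 119.9 and 63.6. Bcl11b, the guardian of T cell identity, had NKT scores of 67.3 and 63.0 and PLZF-transgenic scores of 196 and 179 at sites inside it. Nfatc3, Ets2 and Bcl6 had a site each.

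Other lists held fewer. Of 49 cytoplasmic ribosomal protein genes, which every cell uses, 7 had a site (14.3%, 5.94 to 27.2%), also above the 3.28% of all protein-coding genes. Sites over the promoters of Rps18 and Rpl18 were given to the neighbours Vps52 and Sphk2 and are not in this count. Rpl14 scored 138 in the NKT list and 181 in the PLZF-transgenic list at 8.67 kb, and Rpl12, Rpl32, Rps14, Rpl5 and Rps9 scored 59.9 to 97.2 and 68.6 to 169 within 301 bp of the gene or inside it. Of 34 migration and adhesion genes 4 had a site (11.8%, 3.30 to 27.4%), all without a strong one. Strong shared sites were given to 12 of the 34, 35.3%, against 3.74% of all protein-coding genes. Cxcr5, a chemokine receptor gene, scored 133 and 192 at 6.88 kb, Plxnd1 76.4 and 153, Dock2 57.3 and 83.4, and Itgal 52.4 and 110, the NKT score first. Of 28 survival genes 3 had a site (10.7%, 2.27 to 28.2%), namely Casp8, Bcl2l1 and Trp53. Of 50 PI3K, mTOR and MAP kinase genes 5 had a site (10%, 3.33 to 21.8%), among them Dusp10, Pik3cg, Sgk1 and Akt2. Of 33 cell cycle genes 3 had a site (9.09%, 1.92 to 24.3%), namely E2f2, Ccne1 and Cdc20. The intervals of the survival and cell cycle lists held the 3.28% of all protein-coding genes, and those of the migration and kinase lists began close to it. Unshared peaks fell to 8 of the ribosomal, 11 of the migration, 4 of the survival, 19 of the kinase and 7 of the cell cycle genes. Among all protein-coding genes their share was 8.79%.

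The list of innate-like effector genes had a site at 2 of 32 members (6.25%, 0.766 to 20.8%), an interval that holds the 3.28% of all protein-coding genes. A strong one was given to 4 of the 32, 12.5%, against 3.74% of all genes. Slamf6, a SLAM receptor gene that natural killer T cell development uses, had 2 sites, with NKT scores of 115 and 55.0 and PLZF-transgenic scores of 176 and 136. Tnfsf11, which encodes RANKL, scored 81.1 in the NKT list and 95.4 in the PLZF-transgenic list. Of 36 NF-kB and TNF family genes 1 had a site (2.78%, 0.0703 to 14.5%), Traf1, with scores of 55.6 and 154 at its promoter. Of 42 co-repressor and chromatin genes 0 had a site. The upper bound of 8.41% lay above the 3.28% of all protein-coding genes. A strong one was given to 4 of the 42, against 3.74% of all genes. The count of 0 rests on the list and on giving each site to its closest gene alone. The site over the promoters of Rbbp4 and Zbtb8os fell to Zbtb8os. Bcor, the gene of a BCL6 co-repressor with a site 42.6 kb away, was not in the list. Unshared peaks fell to 7 of the innate-like effector, 6 of the NF-kB and TNF family and 12 of the co-repressor and chromatin genes. Among all protein-coding genes their share was 8.79%. Markers of other cells of the thymus gave 1 of 20 B cell genes (Cr2, 64.8 kb away, 110 in the NKT list and 113 in the PLZF-transgenic list), 0 of 27 myeloid and dendritic genes and 0 of 24 stroma genes. A neuronal comparison list gave 0 of 30. The upper bounds were 24.9% for the B cell, 12.8% for the myeloid and dendritic, 14.2% for the stroma and 11.6% for the neuronal list. The interval of each held the 3.28% of all protein-coding genes, so these counts show no difference from that share. The lists were not matched for the length of their genes or for expression, and no test of enrichment was made.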

How the data were processed

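The measurements were streptavidin ChIP peak lists of 1 NKT and 1 PLZF-transgenic library. The authors deposited a score per peak, with no header. The submitters' processing notes list Bowtie, HOMER and Picard with build mm10, without versions, and peak names in the files begin with MACS. The sources used here do not give the meaning of the score, any pooling of reads or the role of the input libraries. The depth is unknown. With 1 library per group there is no replicate check, so no p-value was computed, and exact (Clopper-Pearson) 95% binomial intervals cover counting error only.

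Peaks were read with pandas 2.3.3, starts were raised by 1 base, and intervals came from SciPy 1.17.1. Gene spans came from a RefSeq table of GRCm38.p6 (21627 protein-coding genes). Promoter windows with strand came from RefSeq for 17273 of these genes, with none used for chromosome 18. The members and gene lists were chosen with earlier results of these data known. All listed symbols were in the gene table. Named by rule were the 10 sites with the highest NKT score, the 5 nearest the ceiling on either side, up to 6 genes per list by NKT score, the 10 genes with the most sites with ties, and up to 10 genes at promoters or boundaries. Zbtb16, further list members and the remaining promoter pairs on opposite strands were chosen after their values were seen. Promoters were printed for 6 of the named genes, a choice made to show promoters with and without the ETS core. Values of some listed genes are not reported here. Classes were tested on simulated peak lists. Alternatives were another ceiling, overlap, minimum score, order of scores, boundary window, gene set and gene distance, removal of presumed repeat-rich regions, and promoters that hold the site midpoint.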

Additional observations from a re-analysis of the deposited data

How the results depend on the processing

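Shares of moderate shared sites near boundaries, inside genes and between genes stayed within their intervals under the other ceiling, overlap, minimum score and score order. A ceiling of 150 gave 560 sites, a median width of 366.5 bp and 39 listed genes, against 854, 404.5 bp and 60. A reciprocal overlap of 50% gave 478 sites, 383 bp, 423 protein-coding genes (against 709) and 38 listed genes. Under both, 8 T cell receptor signalling and 7 cytokine receptor genes had a site, against 13 and 11. Scores of at least 60 gave a width of 422.5 bp, and no condition on the order of scores gave 380 bp. A boundary window of 2.5 kb gave 39.3% near boundaries, 37.9% inside and 22.7% between genes, and protein-coding genes alone gave 19.9% near boundaries and 38.1% between genes, as wider windows and fewer genes must. Removing runs of 5 or more peaks within 50 kb that lay over 100 kb from protein-coding genes, and Sfi1, took out 4 sites. This rule need not find repeats. All 12 motif shares stayed within their intervals when the site midpoint had to lie in the promoter. Counts for single lists moved by more than 1.5 times in 25 of 90 cases, most of them of 5 genes or fewer. No paired analysis was possible because each population had 1 ChIP library. With the depth unknown, a peak missing from a list may be a site below its threshold.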

Other observations

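On the X chromosome, 9 of 23 PLZF-transgenic peaks were moderate shared sites, 39.1% (exact 95% interval 19.7 to 61.5%), against 11.5 to 19.8% on each autosome. Sh3kbp1, which encodes an adaptor of receptor endocytosis, held 2 of them, with NKT scores of 99.98 and 104 and PLZF-transgenic scores of 121 and 136. A site 29.3 kb from Gpr174, a lymphocyte receptor gene, scored 93.7 in the NKT list and 158 in the PLZF-transgenic list, and a site 42.6 kb from Bcor, the gene of a BCL6 co-repressor, 62.9 and 176. The share rests on 23 peaks and was noticed after the values were seen.

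Of the 60 sites over 100 kb from a protein-coding gene, 3 lay together in the desert beside Bcl11b, 127 to 131 kb from the gene (chromosome 12, from 107779210 to 107783885), with NKT scores of 148, 64.8 and 65.6 and PLZF-transgenic scores of 168, 125 and 143. Others lay 205 kb from Foxo1 (chromosome 3, 52555029 to 52555479, 126 in the NKT list and 189 in the PLZF-transgenic list) and 162 kb from Ptprc, which encodes CD45 (chromosome 1, 137900694 to 137901096, 126 and 129.98). Within 1 kb of a lncRNA boundary as the nearest gene lay 48 sites. The highest NKT score among them, 149, belonged to a site at Gm26615 on chromosome 4 (133085918 to 133086409), with a PLZF-transgenic score of 196.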
